A study of Mus musculus with 53 samples.

Results

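After a long Western diet, livers labelled Bmp8b knockout were set against wild-type livers. The libraries were chosen by their titles in the table of the diet experiment: 7 marked knockout and 7 marked wild type on Western diet, together 14 of the 53 libraries of the series. The series measured messenger RNA by sequencing in whole livers, snap-frozen, from male mice of strain C57BL/6J, in 3 experiments. In the diet experiment, mice given as 9 weeks old ate Western Diet (labelled knockout and wild type) or a low-fat control diet (9 wild-type livers) for 32 weeks. The other experiments, in mice of 16 weeks, hold 6 labelled knockout and 4 wild-type livers 3 days after an injection of CCl4, a liver toxin, in olive oil, and 4 labelled knockout and 5 wild-type livers 3 days after partial hepatectomy (surgical removal of part of the liver). These experiments also hold 6 wild-type livers given olive oil alone and 5 wild-type pieces resected at day 0 of hepatectomy, whose titles carry the mouse numbers of the 5 wild-type livers of day 3. The design text calls the wild-type mice littermates and does not say how the knockout allele was made or which exons it removes. Every liver labelled knockout had received diet, toxin or surgery, so a label difference present without them cannot be told apart from one that needs them.

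BMP8B is a secreted signalling protein, 1 of the bone morphogenetic proteins (BMPs). BMP ligands bind pairs of type I and type II receptor kinases, which phosphorylate the transcription factors SMAD1, SMAD5 and SMAD9. Phosphorylated SMADs enter the nucleus with SMAD4 and raise targets such as the Id genes, Smad6, Smad7 and, in hepatocytes, the iron hormone hepcidin (Hamp). A Western diet, rich in fat and sugar, loads mouse liver with lipid and in time brings macrophages and fibrosis. BMP8B is best known from brown fat, where it bears on heat production.

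The Western diet libraries held 8963187 to 15196537 counts in labelled knockout livers and 9708540 to 14630233 in wild-type livers. Albumin (Alb), the main secreted protein of hepatocytes, stood at 49570 to 69440 CPM in labelled knockout livers and 43330 to 69460 CPM in wild-type livers, where CPM scales a count to the TMM-normalized library total. The summed level of 6 skeletal muscle markers reached at most 0.941 CPM in labelled knockout livers and 1.38 CPM in wild-type livers. The sequencing index read called i5 was not balanced: D501 marked 5 labelled knockout and 3 wild-type livers, and D502 marked 2 labelled knockout and 4 wild-type livers. One labelled knockout liver, number 1, stood apart from the other 6, with macrophage and matrix genes near their low-fat level. Wild-type livers 32 and 36 and labelled knockout liver 33 also lay below most Western diet livers in these genes, so list medians are also given without liver 1, without liver 1 and wild-type livers 32 and 36, or without all 4 of these livers.

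The quasi-likelihood test of edgeR, adjusted by Benjamini-Hochberg, called 2 of 13005 tested genes (0.0154%) at an adjusted p under 0.05, both higher in labelled knockout livers. At an unadjusted p under 0.05 there were 766 genes (5.89%), 411 higher (3.16%) and 355 lower (2.73%) in labelled knockout livers. The median log2 fold change over all tested genes was -0.002, with quartiles at -0.12 and 0.09. Levels of the 7 labelled knockout and 7 wild-type livers did not overlap for 11 genes (0.0846%), 8 of them higher (0.0615%) and 3 lower (0.0231%) in labelled knockout livers. The count at an unadjusted p under 0.05 was 468 without labelled knockout liver 1, 1418 without labelled knockout liver 35 and 1149 without labelled knockout liver 1 and wild-type livers 32 and 36. It was 896 without labelled knockout livers 1 and 33 and wild-type livers 32 and 36. Both called genes were called in each of these fits, and Ndufs5 was called as well in the last (edgeR adjusted p = 0.0109). The called genes were BC002163, a processed pseudogene, and Utp11, a component of the machinery that assembles the small ribosomal subunit.

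BC002163 is an intronless copy of the coding sequence of Ndufs5, a subunit of respiratory complex I. It lies on chromosome 16 from 42955631 to 42955949 on the plus strand (GRCm38), inside Zbtb20 but outside all of its annotated exons. Ndufs5 itself lies on chromosome 4 from 123712710 to 123718202 on the minus strand, 0.581 Mb from Bmp8b. The 319 bases of BC002163 match bases 93 to 411 of the Ndufs5 transcript with 2 mismatches (99.4% identity), T81C and A105G, written with the Ndufs5 base first and numbered from the 5′ end of BC002163. The 105 bases around both mismatches, from the GENCODE vM21 transcripts, follow, 5′ to 3′, with the differing bases in capitals, because only there can a read within the shared stretch be given to one gene or the other.
BC002163: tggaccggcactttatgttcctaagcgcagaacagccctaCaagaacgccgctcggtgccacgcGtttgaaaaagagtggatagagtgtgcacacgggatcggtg
Ndufs5: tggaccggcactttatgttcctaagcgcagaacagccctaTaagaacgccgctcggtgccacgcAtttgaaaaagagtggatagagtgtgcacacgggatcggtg

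BC002163 had 6.68, 8.24 and 10.5 CPM (lowest, median and highest of 7) in labelled knockout livers and 0.0596, 0.345 and 0.744 CPM in wild-type livers on Western diet. The lowest labelled knockout liver thus lay far above the highest wild-type liver, and labelled knockout liver 1, which was near the low-fat livers in macrophage and matrix genes, was at 8.86 CPM with the rest. The means were 8.36 ± 1.26 CPM in labelled knockout livers and 0.386 ± 0.252 CPM in wild-type livers (SD, n = 7 each) (log2 fold change 4.45, SE 0.32, edgeR adjusted p = 3.58e-09). In raw counts, wild-type libraries held 1 to 10 reads on the pseudogene and labelled knockout libraries 71 to 133. Wild-type livers on low-fat diet held 0 to 0.529 CPM.

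Ndufs5, the parent gene, had 6.10, 8.25 and 15.1 CPM (lowest, median and highest) in labelled knockout livers and 12.6, 14.7 and 20.1 CPM in wild-type livers. The groups overlapped through labelled knockout liver 33 alone, at 15.1 CPM, while the other 6 labelled knockout livers reached at most 10.3 CPM. Its means were 9.08 ± 2.98 CPM in labelled knockout livers and 15.7 ± 2.95 CPM in wild-type livers (SD, n = 7 each) (log2 fold change -0.78, SE 0.16). This did not pass over all genes by edgeR (unadjusted p = 6.02e-05, adjusted p = 0.261), while DESeq2 gave an adjusted p of 0.0193 and edgeR without labelled knockout liver 33 an adjusted p of 0.00222 at a log2 fold change of -0.96. An exact two-sided permutation test of log2(CPM + 0.5) gave p = 0.0035 for Ndufs5 alone, unadjusted.

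Taken as 1 quantity, the reads of the pair differed less between the groups on Western diet than those of either gene. Ndufs5 and BC002163 summed to 17.4 ± 2.62 CPM in labelled knockout livers and 16.1 ± 3.09 CPM in wild-type livers (SD, n = 7 each), and an exact two-sided permutation test gave p = 0.332. The division between them differed without overlap of the groups. BC002163 held 32.2% to 63.3% of the reads of the pair in labelled knockout livers, with a median of 47.5%, and 0.417% to 4.43% in wild-type livers, with a median of 2.08%. The low counts and near-identical sequences leave it uncertain from which of the genes, or from which allele of Ndufs5, these reads came, and gene totals do not show whether they carry the pseudogene's bases.

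The same division by label was present in the other experiments, in other mice. All 17 labelled knockout libraries of the series, at 4.93 to 11.7 CPM, held more BC002163 than any of the 36 wild-type libraries, low-fat, olive oil and day 0 libraries included, at 0 to 1.64 CPM. After CCl4 the log2 fold change was 5.21 with SE 0.65 (edgeR adjusted p = 0.00446), where BC002163 was the only gene called of 11663 (0.00857%). BC002163 held 37.8% to 56.5% of the reads of the pair in labelled knockout livers and 0 to 5.00% in wild-type livers after CCl4. There Ndufs5 stood at 7.78 ± 1.46 CPM in labelled knockout livers (SD, n = 6) and 10.9 ± 5.43 CPM in wild-type livers (SD, n = 4). Its groups overlapped (log2 fold change -0.50, edgeR adjusted p = 0.814). The summed pair after CCl4 stood at 15.8 CPM in labelled knockout livers and 11.1 CPM in wild-type livers (exact two-sided permutation p = 0.0857, unadjusted). At day 3 of hepatectomy the log2 fold change of BC002163 was 4.29 with SE 0.58 (edgeR adjusted p = 0.00191), among 17 called genes of 11026 (0.154%).

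The label difference of Ndufs5 was larger after hepatectomy than on the diet by edgeR but did not pass by limma voom. At day 3 the parent gene stood at 0.167 ± 0.199 CPM in labelled knockout livers (SD, n = 4) and 5.02 ± 1.44 CPM in wild-type livers (SD, n = 5), and BC002163 held 92.9% to 100% of the reads of the pair in labelled knockout livers against 0 to 26.7% in wild-type livers. In a joint fit of all 53 libraries, the Ndufs5 log2 fold change on Western diet minus that after hepatectomy was 4.05, SE 0.67 (edgeR adjusted p = 0.00209), and limma voom on the same contrast gave 3.35 with an adjusted p of 0.876. The hepatectomy table was counted on a different annotation, with 53379 genes against 38293 in the diet table, and its part in this difference was not tested. Each labelled knockout liver of day 3 held 0 or 1 Ndufs5 reads. Wild-type livers stood at 5.83 ± 2.12 CPM of Ndufs5 at day 0 of hepatectomy (SD, n = 5) and 16.9 ± 2.92 CPM on low-fat diet (SD, n = 9). The summed pair stood at 9.23 ± 2.64 CPM in labelled knockout livers and 5.49 ± 1.40 CPM in wild-type livers after hepatectomy (exact two-sided permutation p = 0.0476, unadjusted).

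Utp11 lies on chromosome 4 from 124678160 to 124693600 on the minus strand, 1.55 Mb from Bmp8b, and encodes a protein of the small subunit (SSU) processome, which matures 18S ribosomal RNA. It had 22.8, 26.3 and 29.0 CPM (lowest, median and highest) in labelled knockout livers and 15.3, 16.9 and 19.6 CPM in wild-type livers on Western diet. The groups did not overlap, and labelled knockout liver 1 held the highest value. The means were 26.3 ± 2.11 CPM in labelled knockout livers and 17.1 ± 1.43 CPM in wild-type livers (SD, n = 7 each), 1.53-fold, with a log2 fold change of 0.62, SE 0.08 (edgeR adjusted p = 0.00047). Low-fat wild-type livers reached 22.6 CPM, close to the lowest labelled knockout liver. Within index D501 the log2 fold change was 0.66 (edgeR adjusted p = 0.101) and within D502 it was 0.57 (edgeR adjusted p = 0.999).

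The level of Utp11 was also measured after the other challenges. After CCl4 it stood at 17.6 ± 2.79 CPM in labelled knockout livers (SD, n = 6) and 18.5 ± 1.51 CPM in wild-type livers (SD, n = 4) (log2 fold change -0.08, SE 0.16, edgeR adjusted p = 0.963). At day 3 of hepatectomy it stood at 24.1 ± 2.27 CPM in labelled knockout livers (SD, n = 4) and 17.1 ± 3.55 CPM in wild-type livers (SD, n = 5) (log2 fold change 0.50, SE 0.17, edgeR adjusted p = 0.377), and the groups overlapped. The difference between its label effect on Western diet and after CCl4 was 0.68 on the log2 scale with SE 0.17, which did not pass over all genes (edgeR adjusted p = 0.206). That between Western diet and hepatectomy was 0.12 with SE 0.18 (edgeR adjusted p = 1.00).

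**Figure D1:**
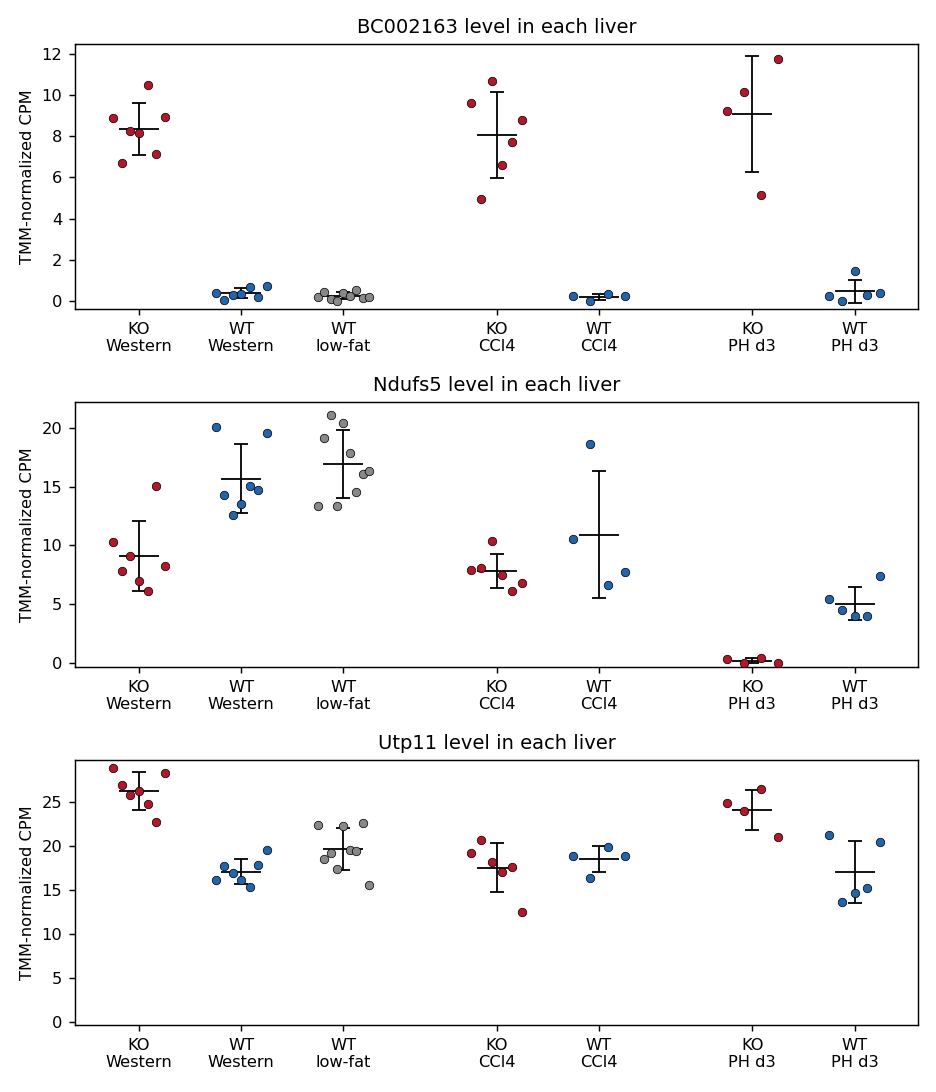
Level of BC002163, Ndufs5 and Utp11 in each liver in TMM-normalized CPM (vertical axis), by group (horizontal axis: KO, labelled knockout; WT, wild type; PH d3, day 3 of partial hepatectomy). Points are livers, and the long mark and bars are the mean ± SD. BC002163 was at 4.93 to 11.7 CPM in every labelled knockout liver, and Utp11 was at 22.8 to 29.0 CPM in labelled knockout livers and 15.3 to 19.6 CPM in wild-type livers on Western diet, while its groups overlapped after CCl4.

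Bmp8b itself was not lower in labelled knockout livers. It lies on chromosome 4 from 123105165 to 123132099 on the plus strand, and had 0.718, 1.69 and 2.23 CPM (lowest, median and highest) in labelled knockout livers and 0.521, 1.24 and 1.79 CPM in wild-type livers on Western diet. The groups overlapped over most of their range, and both lay above the low-fat livers, which reached 0.312 CPM. The mean log2 difference was 0.39 on the log2(CPM + 0.5) scale, labelled knockout minus wild type (exact two-sided permutation p = 0.135). After CCl4 the means were 1.18 CPM in labelled knockout livers and 0.464 CPM in wild-type livers. At day 3 of hepatectomy they were 2.12 and 0.848 CPM. These livers held at most 15 counts of Bmp8b each, and its difference was not tested in them. Bmp8b overlaps Oxct2b, Ppie and Gm17244, and the strand setting of the counting is not given in the sources used here, so reads of these genes cannot be told apart. Bmp8a, its close paralog, had no counts in any Western diet library, where 3 counts, the most that counting error allows, would be 0.359 CPM in the shallowest labelled knockout library. Without knowledge of the removed exons, gene totals do not check the knockout labels.

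The surroundings of Bmp8b on chromosome 4 were compared with all tested genes. Of 29 tested genes within 2 Mb, 6 had an unadjusted p under 0.05 (20.7%, against 5.89% of all genes), and 1 of them, Utp11, was called. Within 5 Mb this was 11 of 87 genes (12.6%), within 10 Mb 17 of 209 (8.13%), within 20 Mb 33 of 389 (8.48%) and on the rest of chromosome 4 30 of 454 (6.61%). After CCl4 the share within 2 Mb was 7.41% of 27 genes, against 6.16% of all genes, and after hepatectomy 15.4% of 26 genes, against 9.08%. Chromosome 4, with 843 of the 13005 tested genes (6.48%), held 7 genes at an unadjusted p under 0.001 on Western diet. No other chromosome held more than 1, with 5 to 1071 tested genes each.

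**Figure D2:**
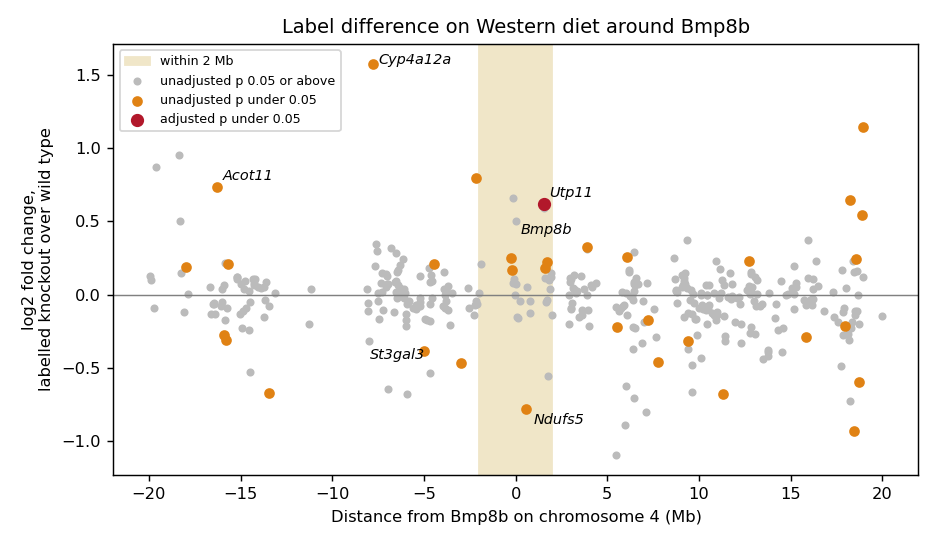
Log2 fold change on Western diet, labelled knockout over wild type (vertical axis), of the 389 tested genes within 20 Mb of Bmp8b, by distance from it on chromosome 4 in Mb (horizontal axis). Colours mark unadjusted and adjusted p, and the band spans 2 Mb on either side. Utp11 at 0.62 and Ndufs5 at -0.78 lay in the band, and Cyp4a12a at 1.58 lay 7.77 Mb away.

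Besides Utp11 and Ndufs5, 4 genes within 2 Mb of Bmp8b had an unadjusted p under 0.05. Ppt1, a lysosomal enzyme that removes palmitate from proteins, stood at 50.7 ± 7.53 CPM in labelled knockout livers and 42.6 ± 6.44 CPM in wild-type livers (SD, n = 7 each), with a log2 fold change of 0.25 (SE 0.10, edgeR adjusted p = 0.813). Its label difference was 0.50 after CCl4 (edgeR adjusted p = 0.654) and 0.40 after hepatectomy (edgeR adjusted p = 0.385), the same sign in all 3 experiments. Its groups did not overlap after CCl4, at 41.6 to 62.9 CPM in labelled knockout livers and 28.1 to 37.9 CPM in wild-type livers, as for 0.952% of tested genes. They did not overlap after hepatectomy either, at 44.0 to 55.0 CPM in labelled knockout livers and 29.1 to 40.1 CPM in wild-type livers, as for 2.68% of tested genes. Cap1, an actin regulator that overlaps Ppt1 at its end, had a log2 fold change of 0.17 on Western diet. Sf3a3, a splicing factor, and Yrdc, an enzyme of transfer RNA modification, had 0.18 and 0.22 on Western diet, -0.22 and -0.62 after CCl4, and 0.05 and 0.18 after hepatectomy. On Western diet the groups overlapped for all 4 of these genes.

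Beyond the called genes, the 10 higher and 10 lower genes with the smallest unadjusted p (among genes averaging 1 CPM or more in either group) were examined. Of these 20, 7 lie on chromosome 4, which holds 6.48% of the tested genes. Apart from the called pair and Ndufs5, the smallest adjusted p among them was 0.697, and none of the rest passed over the 13005 genes. Those higher in labelled knockout livers include Acot11, an acyl-CoA thioesterase on chromosome 4, at 62.5 ± 23.7 CPM in labelled knockout livers and 37.6 ± 9.08 CPM in wild-type livers (SD, n = 7 each) (log2 fold change 0.74, SE 0.19). The log2 fold change of Acot11 was 0.46 after CCl4 and -0.99 after hepatectomy (edgeR adjusted p = 0.392). Nop10, a core protein of the particles that pseudouridylate ribosomal RNA, stood at 42.2 ± 3.71 CPM in labelled knockout livers and 35.4 ± 2.76 CPM in wild-type livers, and Chchd1, a mitochondrial ribosomal protein, had a log2 fold change of 0.30 (SE 0.08). The antisense transcript 4933438K21Rik, also on chromosome 4, stood at 1.08 to 2.57 CPM in labelled knockout livers and 0.119 to 0.979 CPM in wild-type livers, without overlap.

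The remaining higher genes were Zcchc9, with a log2 fold change of 0.44, Lsm12, an Sm-like protein, with 0.29, the long non-coding Gm2061, which overlaps Slc30a10, with 1.33, and mt-Nd6, a complex I subunit of the mitochondrial genome, with 0.67. mt-Nd6 is antisense to mt-Nd5, so its reads are uncertain without a known strand setting. In CCl4 and hepatectomy livers, the log2 fold changes of Zcchc9, Lsm12, mt-Nd6, Nop10 and Chchd1 lay between -0.17 and 0.20.

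Among the lower genes, St3gal3, a sialyltransferase on chromosome 4, stood at 71.1 ± 10.9 CPM in labelled knockout livers and 93.0 ± 14.0 CPM in wild-type livers (SD, n = 7 each) (log2 fold change -0.39, SE 0.10). Akt1, a kinase of insulin signalling, stood at 43.7 ± 4.80 CPM in labelled knockout livers and 52.4 ± 2.26 CPM in wild-type livers (log2 fold change -0.26, SE 0.07). Chsy1, which builds chondroitin sulfate, stood at 3.92 ± 0.680 CPM in labelled knockout livers and 6.32 ± 1.53 CPM in wild-type livers. The groups overlapped for these 3 genes. Rpgrip1l, a protein of the ciliary transition zone, stood at 0.777 to 2.45 CPM in labelled knockout livers and 2.48 to 4.55 CPM in wild-type livers, without overlap but by a narrow margin. Fbxo44, an F-box protein of ubiquitin ligases, Aldh1a3, which makes retinoic acid, Rab6b, a Golgi GTPase, and the non-coding 5830444B04Rik and 4930481A15Rik were low, with means of 0.115 to 1.71 CPM in labelled knockout livers and 1.01 to 4.91 CPM in wild-type livers. St3gal3 and Fbxo44 had log2 fold changes of 0.24 and 0.69 after CCl4, the opposite sign, and of -0.12 and -0.36 after hepatectomy, the same sign as on Western diet.

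**Figure D3:**
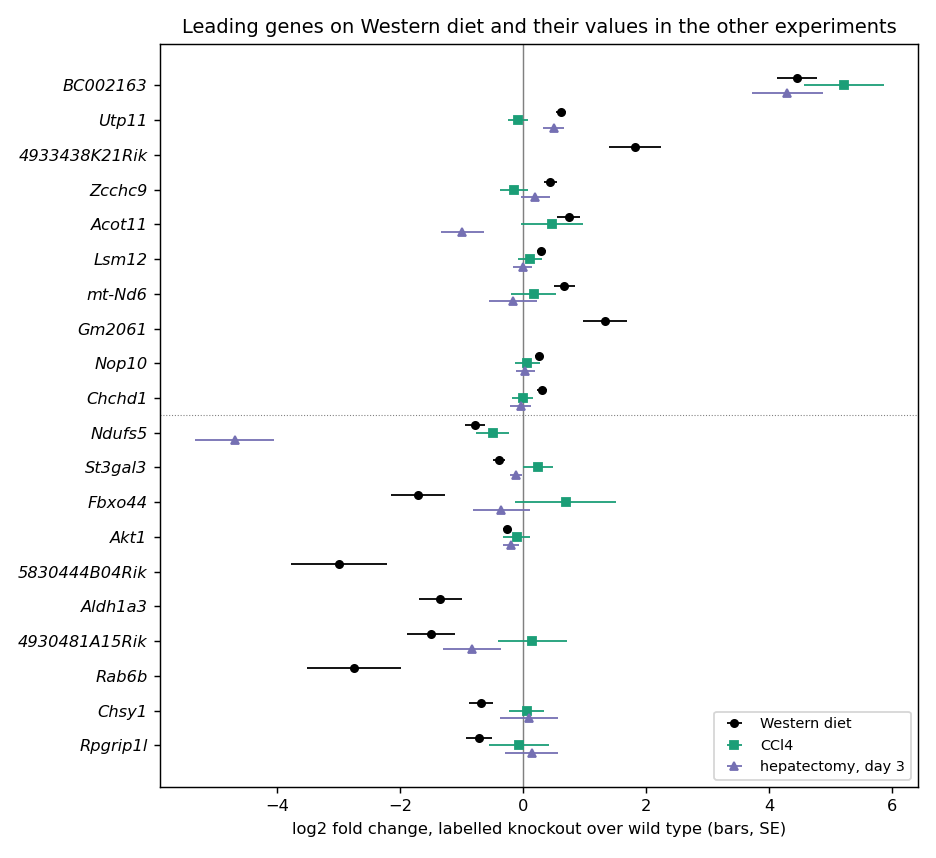
Log2 fold change, labelled knockout over wild type, with SE (horizontal axis) of the 10 higher and 10 lower genes on Western diet (vertical axis), beside their values after CCl4 and at day 3 of hepatectomy, where tested. BC002163 was above 4 in all 3 experiments, and Ndufs5 was at -4.69 after hepatectomy, where each labelled knockout liver held 0 or 1 Ndufs5 reads.

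Other genes without overlap did not pass over all genes. Chchd3, a protein that shapes mitochondrial cristae, stood at 86.8 to 99.9 CPM in labelled knockout livers and 73.8 to 85.7 CPM in wild-type livers. Psmc6, an ATPase of the proteasome, stood at 75.5 to 92.0 CPM in labelled knockout livers and 67.5 to 75.0 CPM in wild-type livers. Cd164, a sialomucin, Hsd17b12, an enzyme of very long chain fatty acid synthesis, and the transcript BC051077 were likewise higher in every labelled knockout liver, with log2 fold changes of 0.22, 0.20 and 0.63. Rbm41 was lower in every labelled knockout liver, with -0.59. All 6 had an edgeR adjusted p of 0.813.

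The BMP pathway was measured next. Of 14 tested BMP-SMAD targets, 0 were called by edgeR and 0 had an unadjusted p under 0.05 (against 5.89% of all genes), and their median log2 fold change was -0.05. Hamp, the hepcidin gene, stood at 229 ± 153 CPM in labelled knockout livers and 168 ± 91.9 CPM in wild-type livers (SD, n = 7 each), with a log2 fold change of 0.45 and SE 0.35 (0.23 without labelled knockout liver 1), and its paralog Hamp2 had -0.27. Id1, a direct SMAD target, stood at 3.98 ± 2.75 CPM in labelled knockout livers and 3.98 ± 0.777 CPM in wild-type livers. Smad7, a feedback inhibitor of the pathway, stood at 8.82 ± 1.46 CPM in labelled knockout livers and 8.56 ± 1.77 CPM in wild-type livers. Id2, Id3, Smad6, Atoh8 and Bambi had log2 fold changes between -0.15 and -0.01. The spread between livers was wide for Hamp, so a difference of its size was not detectable with 7 livers a group.

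Of 37 tested BMP pathway components, 0 were called, 1 was higher and 3 were lower at an unadjusted p under 0.05 (against 3.16% and 2.73% of all genes), and their median log2 fold change was -0.02. Acvr2b, a type II receptor, stood at 0.642 ± 0.213 CPM in labelled knockout livers and 1.34 ± 0.569 CPM in wild-type livers (SD, n = 7 each) (log2 fold change -1.04, SE 0.36) at a low level. Acvr1b, a type I activin receptor, had a log2 fold change of -0.27 and Smad4, the common partner of the SMADs, -0.15, while Inhbc, a hepatocyte activin subunit, had 0.22. The ligands Bmp2, Bmp4 and Bmp6 had 0.13, 0.40 and -0.02, and the receptors Bmpr1a and Bmpr2 -0.01 and -0.08. None of these reached an edgeR adjusted p below 0.813.

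The lists of matrix, macrophage and mitosis genes had medians below that of all genes, without a called gene. In the 36 lists, Utp11 was called by edgeR, and Ndufs5 by DESeq2, and no other gene by these tools or limma voom over the whole table. In this bulk tissue, fewer cells of a type and less RNA per cell cannot be told apart. Of 34 collagen and matrix genes, 34 had a log2 fold change below 0 (as had 6558 of all 13005 tested genes) and 8 were lower at an unadjusted p under 0.05 (against 2.73% of all genes), with a median of -0.35. Col1a1, a chain of the main fibrillar collagen, stood at 2.87 to 52.9 CPM in labelled knockout livers and 16.4 to 63.0 CPM in wild-type livers. Col4a2, of basement membranes, had a log2 fold change of -0.43 (SE 0.16, edgeR adjusted p = 0.813) and Col14a1, which binds fibrils, -0.40 (SE 0.15, edgeR adjusted p = 0.813). The matrix list depended on single livers and on the index. Without labelled knockout liver 1 its median was -0.26 with 3 genes at an unadjusted p under 0.05 (against 3.57% of all genes in that fit). Without that liver and wild-type livers 32 and 36 it was -0.42 with 18 such genes (against 8.715% of all genes in that fit). That choice drops the lowest 2 wild-type livers in this list and keeps labelled knockout liver 33, which was as low. With liver 33 left out as well, the median was -0.35 with 13 such genes (against 6.83% of all genes in that fit). Labelled knockout liver 15, at 0.692 in mean log2 level of this list, was kept, while wild-type liver 36, at 0.760, was left out.

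Within index D501 the mean log2 level of the matrix list, relative to the low-fat livers, was 0.78 in labelled knockout livers and 1.44 in wild-type livers. Within D502 it was 1.07 in labelled knockout livers and 1.08 in wild-type livers. The lower level was thus seen in D501, which holds labelled knockout liver 1, and not in D502, which holds wild-type livers 32 and 36. The macrophage list stood at 1.63 in labelled knockout livers and 2.51 in wild-type livers within D501, and at 1.68 in labelled knockout livers and 1.81 in wild-type livers within D502. Liver 1 was at -0.13 in the matrix list and -0.03 in the macrophage list, while the other labelled knockout livers were at 0.62 to 1.52 and at 1.00 to 2.44. The part of the index and of these livers in the list medians was not tested.

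**Figure D4:**
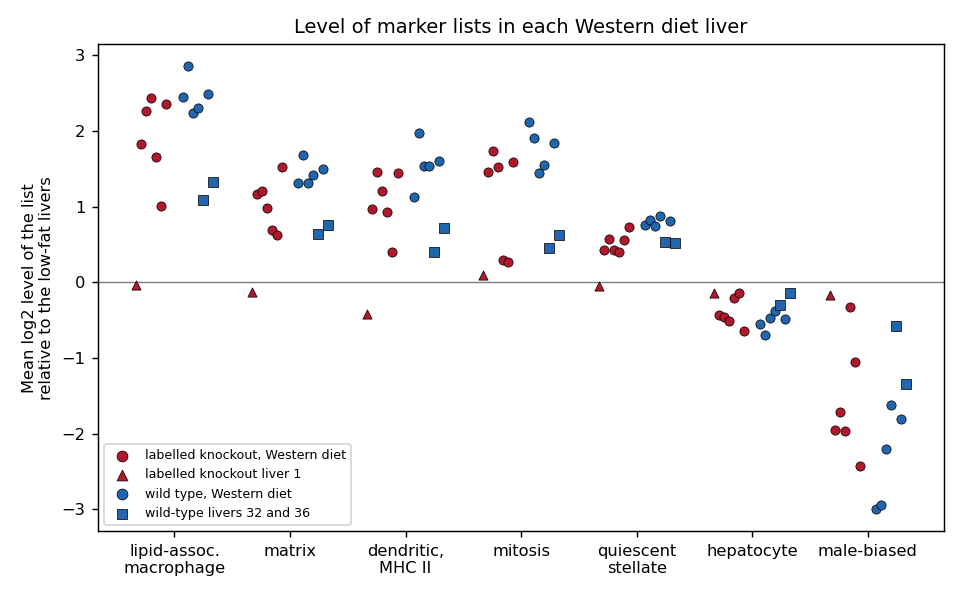
Mean log2 level of 7 marker lists in each Western diet liver, relative to the mean of the low-fat livers (vertical axis), with labelled knockout livers left of wild-type livers in each list (horizontal axis). The triangle is labelled knockout liver 1, at -0.13 in matrix genes, and squares are wild-type livers 32 and 36.

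Of 15 markers of macrophages that come from monocytes or take up lipid, 0 had an unadjusted p under 0.05 (against 5.89% of all genes), and their median log2 fold change was -0.42 (-0.23 without labelled knockout liver 1, and -0.38 without labelled knockout livers 1 and 33 and wild-type livers 32 and 36). Their summed level was 187 to 1054 CPM in labelled knockout livers and 399 to 1324 CPM in wild-type livers, and all 15 were detected. Gpnmb, a glycoprotein of lipid-loaded macrophages, stood at 30.0 ± 20.3 CPM in labelled knockout livers and 38.9 ± 21.5 CPM in wild-type livers (SD, n = 7 each), and Trem2, their lipid receptor, had a log2 fold change of -0.42 (SE 0.41). Resident Kupffer cell markers were mixed, with a median of -0.13: Clec4f had -0.27 and Timd4 0.71. Of 10 dendritic cell and MHC class II genes, 1 was lower at an unadjusted p under 0.05, the growth factor receptor Flt3, and the median was -0.50 (-0.33 without labelled knockout liver 1). For this list and the inflammation and mitosis lists below, the share of all genes at that p was 5.89% in either direction. Of 21 inflammation genes, 1 was lower, the adhesion molecule Vcam1, at 20.3 ± 8.33 CPM in labelled knockout livers and 30.8 ± 13.1 CPM in wild-type livers. Of 18 mitosis genes, 1 was lower, the spindle checkpoint kinase Bub1b, and the median was -0.48 (-0.34 without labelled knockout liver 1). The median of the inflammation genes was -0.35 (-0.23 without labelled knockout liver 1). Without labelled knockout livers 1 and 33 and wild-type livers 32 and 36 the medians were -0.50 for dendritic, -0.41 for mitosis and -0.31 for inflammation genes. That choice kept labelled knockout liver 15, at 0.297 in mean log2 level of the mitosis list. The wild-type livers 32 and 36 that it dropped were at 0.458 and 0.629.

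Quiescent stellate cells store vitamin A and give rise to the matrix-making cells of injured liver. Of 11 tested markers, 11 had a log2 fold change below 0 (as had 6558 of all 13005 tested genes) and 3 were lower at an unadjusted p under 0.05 (against 2.73% of all genes), with a median of -0.28 (-0.24 without labelled knockout liver 1, -0.26 without that liver and wild-type livers 32 and 36, and -0.32 without labelled knockout liver 33 as well). Their summed level was 260 to 420 CPM in labelled knockout livers and 410 to 523 CPM in wild-type livers, so that the groups overlapped by a narrow margin. Colec11, a secreted collectin, stood at 41.8 ± 9.38 CPM in labelled knockout livers and 52.9 ± 5.74 CPM in wild-type livers (SD, n = 7 each), Ngfr, a neurotrophin receptor, at 6.36 ± 2.08 CPM in labelled knockout livers and 8.82 ± 0.959 CPM in wild-type livers, and Hgf, hepatocyte growth factor, at 7.32 ± 0.969 CPM in labelled knockout livers and 9.48 ± 2.23 CPM in wild-type livers. Each had an edgeR adjusted p of 0.813. The myofibroblast marker Acta2 had a log2 fold change of 0.14. The mean log2 level of the 11 tested myofibroblast genes, relative to the low-fat livers, was -0.21 to 0.98 in labelled knockout livers. In wild-type livers it was 0.47 to 1.03. The mean level of the quiescent stellate list was 0.36 in labelled knockout livers and 0.77 in wild-type livers within D501, and 0.65 in labelled knockout livers and 0.68 in wild-type livers within D502. Leaving out wild-type livers 32 and 36, at 0.535 and 0.526 in this level, kept labelled knockout liver 15, at 0.407.

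Hepatocyte genes differed little as a group. Of 20 hepatocyte identity genes, 0 had an unadjusted p under 0.05 (against 5.89% of all genes), with a median of 0.09, and Alb had 0.04. Of 14 genes that are higher in male than in female mouse liver, 1 was higher at an unadjusted p under 0.05 (against 5.89% of all genes in either direction), with a median of 0.49 (0.19 without labelled knockout liver 1). That gene, Cyp4a12a, a fatty acid hydroxylase on chromosome 4, stood at 331 to 647 CPM in labelled knockout livers and 10.7 to 348 CPM in wild-type livers, with an overlap of the groups through wild-type liver 17 and a log2 fold change of 1.58 (SE 0.52, edgeR adjusted p = 0.813). Its neighbour Cyp4a12b is a close copy, so reads may be split between them, and its log2 fold change was 0.20. Hsd3b5, a steroid dehydrogenase of male liver, stood at 13.8 ± 22.5 CPM in labelled knockout livers and 3.18 ± 5.91 CPM in wild-type livers.

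Metabolic lists held at most 3 genes at an unadjusted p under 0.05 (against 5.89% of all genes in either direction), none of them called. In glucose metabolism G6pc, the enzyme that releases glucose, stood at 367 ± 202 CPM in labelled knockout livers and 190 ± 57.3 CPM in wild-type livers (SD, n = 7 each), and Irs2, an adaptor of the insulin receptor, at 3.76 ± 1.96 CPM in labelled knockout livers and 6.52 ± 1.63 CPM in wild-type livers. The log2 fold change of G6pc was 0.95 (edgeR adjusted p = 0.813), and -0.17 within D502. Among lipid droplet genes, the median was -0.01. Plin4, a droplet coat protein, had -0.61, the triglyceride lipase Pnpla2 -0.36, and Fabp1, a fatty acid carrier, 0.24. Of 28 lipogenesis and sterol genes, 0 had an unadjusted p under 0.05 (against 5.89% of all genes). In this list 24 had a log2 fold change above 0 (against 49.6% of all genes), with a median of 0.20. In its mean log2 level, relative to the low-fat livers, wild-type liver 23 was lowest, at -0.999, and it also had the lowest Fasn. The other wild-type livers were at -0.610 to -0.001, and labelled knockout livers at -0.548 to 0.139. Fatty acid synthase (Fasn) stood at 1388 to 4291 CPM in labelled knockout livers and 635 to 2780 CPM in wild-type livers (log2 fold change 0.54, SE 0.34).

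Respiratory chain genes and the list to which Utp11 belongs had medians near that of all genes. Of 29 nuclear genes of oxidative phosphorylation, 3 were higher and 1, Ndufs5, was lower at an unadjusted p under 0.05 (against 5.89% of all genes in either direction). Their median was 0.08, so Ndufs5 at -0.78 went against its list. Of 36 SSU processome genes, 1 was called, Utp11, and 4 were higher at an unadjusted p under 0.05, against 3.16% of all genes. Besides Utp11 these were Wdr75, Krr1 and Utp6, with log2 fold changes of 0.27, 0.18 and 0.17, and the median of the list was 0.06. Among stress genes, Asns, asparagine synthetase, had 1.26 (0.58 without labelled knockout liver 1), Hspa5, the chaperone BiP, 0.29, and Ddit3 and Trib3, both induced by stress, -0.31 and -0.50.

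The remaining lists held at most 2 genes at an unadjusted p under 0.05, against 3.16% higher and 2.73% lower of all genes. Of 17 TGF-beta pathway genes, 1 was lower, Tgfbi, a matrix protein induced by TGF-beta (log2 fold change -0.38, SE 0.13), with a median of -0.20. Of 20 interferon-stimulated genes, 1 was lower, Ifit2 (-0.72), with a median of -0.23. Of 21 drug metabolism genes, 2 were higher, the glutathione transferase Gsta3 (0.22) and the cytochrome Cyp2c37 (0.73, and -0.17 within D502), with a median of 0.18. Within D501 the mean log2 level of this list, relative to the low-fat livers, was 0.020 to 0.491 in labelled knockout livers. In wild-type livers of D501 it was -0.552 to -0.244. Within D502 it was 0.273 and -0.235 in labelled knockout livers and -0.215 to 0.346 in wild-type livers. Cpt1a, which admits fatty acids to mitochondria, had -0.24 among 21 fatty acid oxidation genes, Gtse1 -0.82 among 14 p53 targets, and the clock repressor Nfil3 0.40 among 17 clock genes. All 12 tested mitochondrially encoded genes had a log2 fold change above 0 (against 49.6% of all genes), and 1 of them, mt-Nd6, had an unadjusted p under 0.05. In mean log2 level of these genes, relative to the low-fat livers, labelled knockout liver 1 was the highest Western diet liver, at 0.285. Within D502 labelled knockout livers were at -0.085 and -0.329, and wild-type livers at -0.448 to 0.024. The lists of acute phase, bile acid, NRF2, myofibroblast, sinusoidal endothelial, cholangiocyte, lymphocyte, neutrophil, erythroid, adipocyte and pancreas genes held 0, with medians from -0.25 to 0.14, and no muscle marker was high enough to be tested.

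**Figure D5:**
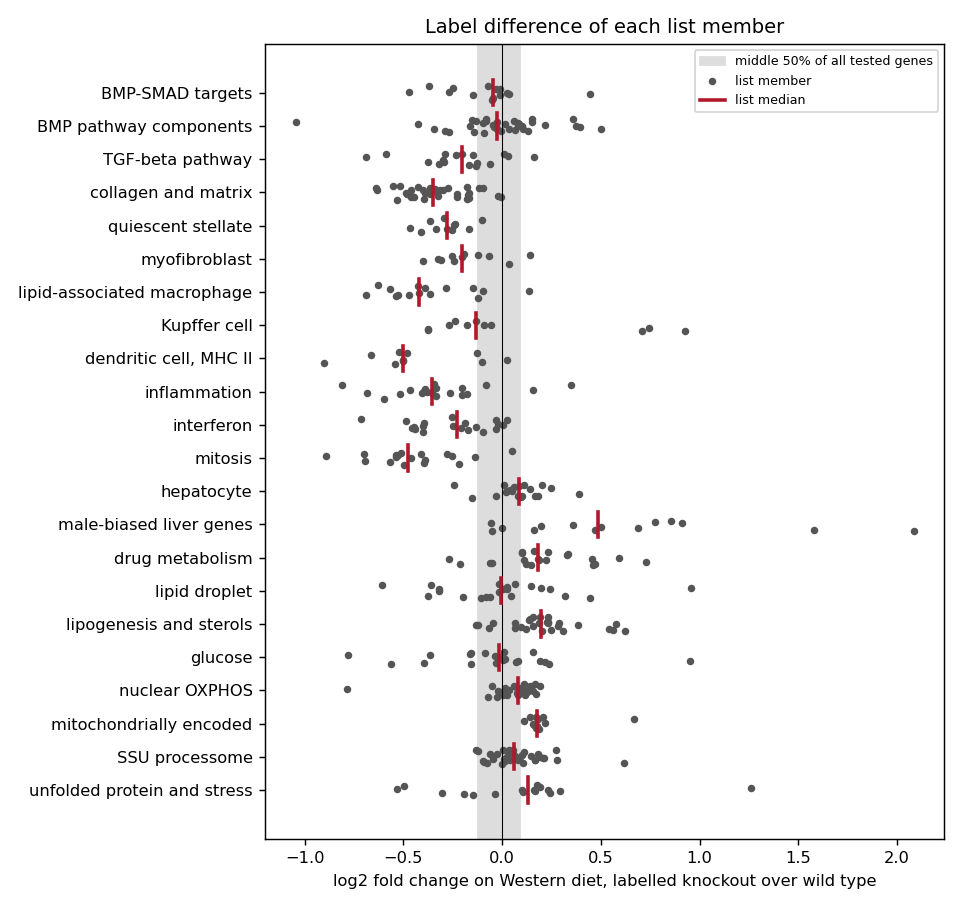
Log2 fold change on Western diet, labelled knockout over wild type (horizontal axis), of each tested member of 22 gene lists (vertical axis). Points are genes, red marks are list medians and the band spans the quartiles of all tested genes, -0.12 to 0.09. Medians lay furthest below 0 in the dendritic (-0.50), mitosis (-0.48) and macrophage (-0.42) lists, and furthest above 0 in the male-biased list (0.49). Without labelled knockout liver 1 these 4 medians were -0.33, -0.34, -0.23 and 0.19. Within index D502 the groups overlapped in mean log2 level of the male-biased list.

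The label differences of the 3 experiments were also compared gene by gene. Between Western diet and CCl4, 0 of 12646 genes (0%) differed at an adjusted p under 0.05 by edgeR, with 1076 at an unadjusted p under 0.05 (8.51%), and limma voom called 0. Between Western diet and hepatectomy, 2 of 12646 genes (0.0158%) differed by edgeR, Ndufs5 and Spred1, with 610 at an unadjusted p under 0.05 (4.82%), and limma voom called 0. Spred1, an inhibitor of Ras signalling, stood at 21.3 ± 1.76 CPM in labelled knockout livers and 22.6 ± 2.60 CPM in wild-type livers on Western diet (SD, n = 7 each). Its log2 fold change was -0.09 on Western diet and 1.11 after hepatectomy, a difference of -1.20 with SE 0.23 (edgeR adjusted p = 0.0252). For BC002163 the difference was -0.92 with SE 0.80 against CCl4 (edgeR adjusted p = 0.785) and 0.07 with SE 0.68 against hepatectomy (edgeR adjusted p = 1.00).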

How the data were processed

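The authors deposited whole-number read counts per Ensembl gene, 1 table per experiment, with no normalization. TopHat2 2.0.11, HTSeq and the build GRCm38 are named in the submitters' processing notes. The HTSeq version, the annotation release and the strand setting are not given in the sources used here. Gene names and coordinates were taken from GENCODE vM21, where 36429 of the 38293 identifiers of the diet table were found.

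The 23 diet libraries were fitted in 1 model with edgeR 4.0.16 in R 4.3.3 (TMM, filterByExpr, quasi-likelihood F-test, two-sided, Benjamini-Hochberg over all tested genes). The CCl4 and hepatectomy tables were fitted separately, and all 53 libraries jointly, over genes in all 3 tables, for differences of label effects. limma 3.58.1 and DESeq2 1.42.0 served as alternatives. Single values were compared by exact two-sided permutation tests in scipy 1.17.1. The tests were tried on simulated data.

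The groups, named genes and 36 gene lists were chosen with earlier results of these data known. Named were Bmp8b and Bmp8a, called genes, the 10 higher and 10 lower genes with the smallest p at a mean of at least 1 CPM, genes within 2 Mb of Bmp8b with an unadjusted p under 0.05, Ndufs5, and per list up to 3 genes with the smallest p and representative members. The genes without overlap and Spred1 were named after their values were seen. Of the genes without overlap, 1 is not reported here. The summed test of Ndufs5 and BC002163, and leaving out libraries of the CCl4 and hepatectomy experiments, were added after seeing the data. The labelled knockout and wild-type libraries compared carry separate mouse numbers, while the day 0 and day 3 wild-type hepatectomy libraries share theirs, and fits without day 0, and without labelled knockout livers 1 and 33 and wild-type livers 32 and 36, were added after seeing the data. No library was left out.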

Additional observations from a re-analysis of the deposited data

Results flagged for a closer look

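Among 116 sets of 7 livers, each 1 gene or list in 1 group, 7 held a liver far from the others, where chance gives about 1 in 20 sets (5%). Acot11 reached 112 CPM in labelled knockout liver 15 and Akt1 54.2 CPM in labelled knockout liver 35, and Rpgrip1l was as low as 0.777 CPM in labelled knockout liver 33. In mean log2 level relative to the low-fat livers, labelled knockout liver 1 was lowest in the glucose list at -0.24 and in the quiescent stellate list at -0.044, while wild-type liver 36 was highest in the clock list at 0.19 and wild-type liver 32 in the Kupffer cell list at 0.88.

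By edgeR, the label difference of Ndufs5 was larger after hepatectomy (log2 fold change -4.69) than on Western diet (-0.78). In the joint fit the diet value minus the hepatectomy value was 4.05, which did not pass by limma voom. Labelled knockout livers held 0 or 1 Ndufs5 reads each after hepatectomy, in a table counted on a different annotation.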

How the results depend on the processing

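On Western diet, DESeq2 called 3 genes, adding Ndufs5 with a log2 fold change of -0.79 (adjusted p = 0.0193). Within D501 the 2 called genes were BC002163 and Cyp2c37 (2.19) and not Utp11, and within D502 1 gene was called, BC002163. Without labelled knockout livers 1 and 33 and wild-type livers 32 and 36 (added after seeing the data), Ndufs5 was called as well, with -0.97. Leaving out each liver gave 2 to 3 called genes, with 3 without labelled knockout liver 33, and 468 (without labelled knockout liver 1) to 1418 (without labelled knockout liver 35) genes at an unadjusted p under 0.05. That count was 1319 with no filter on low counts, 1343 by limma voom with quality weights, 1829 within D501 and 284 within D502. Over 26 alternatives, BC002163 was called in 26, Utp11 in 24 and Ndufs5 in 3. Within D502 the sign of the log2 fold change turned for Col4a1 (0.14), Sparc (0.008), Colec11 (0.033), Cyp2c37 (-0.17), Plin4 (0.14), Pnpla2 (0.048), G6pc (-0.17), Ndufb5 (-0.049), Utp6 (-0.14), Hspa5 (-0.19) and Atf4 (-0.043). The cause was not tested.

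Leaving out livers gave 1 to 2 called genes and 488 to 1737 at an unadjusted p under 0.05 after CCl4, where the log2 fold change of Utp11 ranged over -0.13 to 0.001, the highest without labelled knockout liver 35, and 3 to 40 called genes after hepatectomy. Without the day 0 libraries (added after seeing the data), 24 genes were called after hepatectomy, and Ndufs5 and Spred1 still differed between the diet and hepatectomy. On Western diet the Bmp8b difference in mean log2(CPM + 0.5) ranged over 0.29 to 0.50 with each liver left out. limma voom called 0 genes between Western diet and hepatectomy and gave Ndufs5 3.35. No paired analysis was possible because the labelled knockout and wild-type livers share no mouse numbers. With 7 livers a group, and few reads on BC002163, Ndufs5 and Bmp8b, small differences were not detectable.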
